A study of Caenorhabditis elegans with 2 samples.

Results

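The 562 regions described here are the strongest peaks of the tagged F57A8.1 protein on the X chromosome of Caenorhabditis elegans that lie away from genes for short RNAs. They were chosen by signal: the 30000 peaks of the pooled list were ranked by the authors' signal value, ranks 1 to 3000 were taken, and of the 693 on X those with a summit more than 250 bp from every annotated tRNA, snRNA, snoRNA, miRNA, rRNA and spliced-leader (sls-) gene were kept. The other 131 lay within 250 bp of such a gene and are not members. The same rule gave 2036 peaks on the 5 autosomes, which stand beside the X peaks below. Because signal and rank chose the members, both are descriptions and carry no test. Many members are weak calls by the authors' own measures. The deposited −log10 q, higher for a stronger call, was 2.51 at rank 16, 1.00 at rank 1294 and 0.635 at rank 2727. Only 32 of the 562 passed the authors' threshold, described below.

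The study is a chromatin immunoprecipitation and sequencing (ChIP-seq) experiment on whole animals with an antibody against GFP. All animals were of strain OP757, which carries the allele unc-119(tm4063) and the insertion wgls757. The insertion holds F57A8.1::TY1::EGFP::3xFLAG together with unc-119(+), so that a C-terminally tagged F57A8.1 and a working unc-119 copy were both present. They were young adults of pooled sexes, 65 hours of age, grown from larvae synchronised by starvation. The 2 samples are biological replicates 1 and 2 of this 1 group, each of pooled animals from 1 transgenic line, and no second condition was among them. RefSeq annotates F57A8.1 as protein TSSC4, whose human relative is known to act in the assembly of spliceosomal ribonucleoproteins.

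In worms, hermaphrodites carry a pair of X chromosomes and males a single X. A dosage compensation complex related to condensin is loaded onto both hermaphrodite X chromosomes and lowers their expression. It first binds recruitment elements on X, called rex sites, which hold clustered copies of a degenerate motif known as MEX (motif enriched on X), and from there it spreads along the chromosome. SDC-2 starts this loading, and the gene xol-1 sets the sexual state by reading signals encoded on X and on autosomes.

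No feature named rex was found in the reference annotations used here (0 in RefSeq and 0 in Ensembl), so overlap with recruitment sequence was read from letters of the MEX consensus. The main form searched was GCGCAGGG, called the core below, on either strand and lying wholly within 100 bp of the summit. The shorter CGCAGGG is contained in the core, and the longer CGCGCAGGG contains it. A further form allowed 1 mismatch in the 9 letters. A match describes the letters in the window and says nothing of which protein was bound there.

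The core lay within 100 bp of the summit at some of the strongest X peaks. The 8 windows that follow come from the 8 highest members with it and show the letters around it. Each has 80 bases of the WBcel235 (ce11) reference, 5′ to 3′ on the strand that carries the core. Capitals mark the core, and also copies of GCGAAGGG and GTGGATAA on either strand, so that CCCTTCGC and TTATCCAC are the same letters read from the other strand. GCGAAGGG differs from the core by C4A, with positions counted from 1 at the core's 5′ end. GCGAAGGG and GTGGATAA were picked after these windows had been read, so their counts describe these peaks and support nothing.
rank 16, chrX:11094190-11094269, minus strand: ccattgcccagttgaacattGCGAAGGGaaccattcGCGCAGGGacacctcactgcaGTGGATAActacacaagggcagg
rank 19, chrX:14525864-14525943, minus strand: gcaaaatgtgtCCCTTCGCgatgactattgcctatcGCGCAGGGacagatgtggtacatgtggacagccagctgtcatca
rank 21, chrX:806638-806717, plus strand: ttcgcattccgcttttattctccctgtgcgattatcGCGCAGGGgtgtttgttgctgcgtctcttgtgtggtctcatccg
rank 44, chrX:6296540-6296619, plus strand: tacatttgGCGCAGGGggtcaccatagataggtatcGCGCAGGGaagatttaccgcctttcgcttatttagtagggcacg
rank 47, chrX:1345020-1345099, plus strand: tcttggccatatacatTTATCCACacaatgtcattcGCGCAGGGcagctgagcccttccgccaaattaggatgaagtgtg
rank 97, chrX:16682136-16682215, minus strand: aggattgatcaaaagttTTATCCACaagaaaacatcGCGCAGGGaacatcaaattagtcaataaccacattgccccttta
rank 101, chrX:2997087-2997166, minus strand: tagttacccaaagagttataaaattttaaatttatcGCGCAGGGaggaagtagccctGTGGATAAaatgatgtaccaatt
rank 102, chrX:4209230-4209309, minus strand: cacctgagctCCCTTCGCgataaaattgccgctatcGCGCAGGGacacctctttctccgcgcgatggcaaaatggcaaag

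The next 3 windows, in the same format, are the thresholded members that held GCGAAGGG without the core. They are shown for comparison with the windows above.
rank 24, chrX:9465847-9465926, plus strand: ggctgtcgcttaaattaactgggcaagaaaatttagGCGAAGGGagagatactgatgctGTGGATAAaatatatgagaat
rank 27, chrX:13700868-13700947, minus strand: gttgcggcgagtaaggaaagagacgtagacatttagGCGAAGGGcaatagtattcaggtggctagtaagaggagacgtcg
rank 96, chrX:1627070-1627149, plus strand: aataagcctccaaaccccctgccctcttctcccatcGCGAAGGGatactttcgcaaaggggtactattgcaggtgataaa

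In all, 12 of the 562 members held the core within 100 bp of the summit, which is 2.14% (95% Wilson interval 1.23 to 3.69%, counting error only, as for every interval here). Windows of the same length centred 500 bp to each side of the same summits held it in 2 of 1124 cases, or 0.178%, and 0.0848% of all positions on X would have it in such a window. Among the 2036 autosomal peaks 1 held the core, 0.0491% (0.00867 to 0.278%), beside 0.0490% of autosomal positions. The shorter CGCAGGG was in 17 X members (3.02%) and 9 autosomal peaks (0.442%), and CGCGCAGGG was in 10 X members (1.78%) and no autosomal peak (0 of 2036, at most 0.188%). With 1 mismatch allowed in the 9 letters the counts were 26 of 562 on X (4.63%) and 34 of 2036 on autosomes (1.67%), beside 0.553% and 0.484% of positions. The differences between X and autosomes were not tested, since peaks are not replicates of a condition.

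The core was mostly at the highest ranks. The authors' thresholded list, the peaks that passed a limit on the irreproducible discovery rate (IDR), is the top of the pooled list, all ranks below 296, and 32 members were in it (5.69% of members), where 0.983% of all pooled peaks passed. Since passing rests on the values that chose the members, nothing is read from that difference. Of these 32 members 10 held the core, 31.2% (17.95 to 48.6%), while none of the 122 autosomal peaks of the same ranks did (upper bound 3.05%). In ranks 296 to 1000 it was in 2 of 115 X members (1.74%) and in 1 of 461 autosomal peaks (0.217%). None of the 218 members in ranks 1001 to 2000 and none of the 197 in ranks 2001 to 3000 held it, with upper bounds of 1.73% and 1.91%. Among lower X peaks that pass the distance limit but are not members it was in 3 of 1515 (ranks 3001 to 10000), 2 of 2097 (10001 to 20000) and 4 of 2112 (20001 to 30000), shares of 0.198%, 0.0954% and 0.189%.

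**Figure D1:**
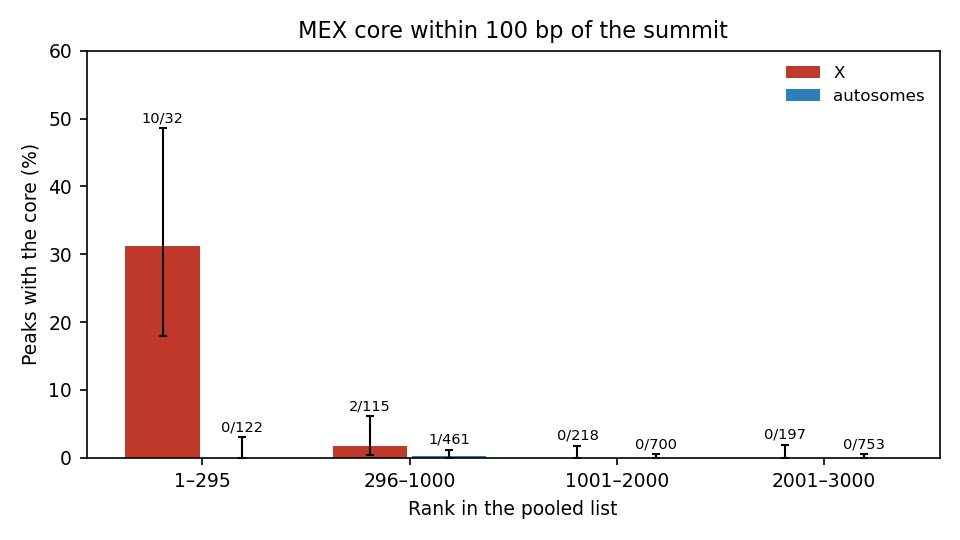
Share of peaks away from short RNA genes with the MEX core within 100 bp of the summit (vertical axis, %), by pooled rank (horizontal axis), for X in red and autosomes in blue; bars are shares, lines 95% Wilson intervals, and the labels give counts. On X the share was 31.2% in the thresholded ranks and 1.74% in ranks 296 to 1000, and no bar stands beyond rank 1000.

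Read from the sequence side, the X chromosome had 81 copies of the core. Of these, 25 (30.9%, 21.9 to 41.6%) lay within 100 bp of a summit of the pooled list, 16 at a summit in ranks 1 to 3000 and 14 at a thresholded one. These counts include 2 copies at the peak of rank 149, which is 206 bp from a tRNA gene and so is no member. The autosomes had 233 copies, of which 28 (12.02%, 8.45 to 16.8%) were at a pooled summit, 4 in ranks 1 to 3000 and 1 at a thresholded one. For the 9 letters CGCGCAGGG, 16 of 33 copies on X were at a pooled summit (48.5%, 32.5 to 64.8%), and 12 of them at a thresholded one. On the autosomes 6 of 44 were at a pooled summit (13.6%, 6.403 to 26.7%), and 0 of the 44 in ranks 1 to 3000. Most copies of the core on X thus had no summit of the pooled list within 100 bp. The share of all positions within 100 bp of a pooled summit was not computed, so these shares have no background beside them. X held 21.5% of pooled peaks away from short RNA genes on 17.7% of the nuclear length, a higher density than the autosomes.

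**Figure D2:**
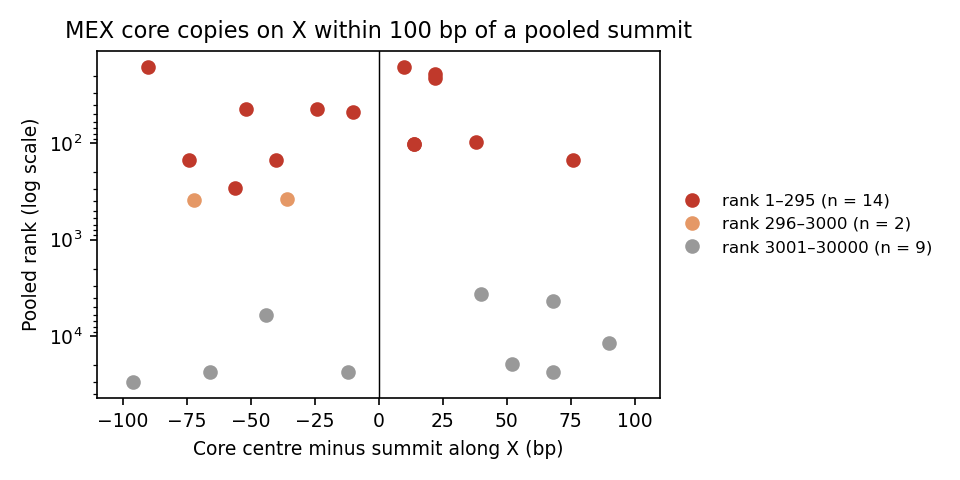
The 25 copies of the MEX core on X that lay within 100 bp of a pooled summit, by distance of the core's centre from the summit in bp (horizontal axis, positive to higher coordinates) and by the pooled rank of the peak (vertical axis, log scale, strongest at the top). Each point is 1 copy: 14 belong to thresholded peaks, 2 to other peaks down to rank 3000 and 9 to lower ranks, and copies lie on both sides of the summit.

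A few letters next to the core were also shared. Among the 12 core holders, taking the copy nearest the summit, C stood directly before the core in 10, T before that in 9, and A directly after it in 9. At the other flanking positions read, the commonest letter was in 4 to 7 of the 12. The C makes the form CGCGCAGGG searched above, which 33 of the 81 core copies on X have. No background was computed for the other letters. Members of ranks 16 and 44 had 2 copies of the core within 100 bp. Of the 32 thresholded members, 9 held GCGAAGGG within 100 bp (28.1%, 15.6 to 45.4%), and 6 of these also held the core. GTGGATAA was in 7 of the 32 (21.9%, 11.02 to 38.8%), and 15 of the 32 (46.9%) held at least 1 of the 3 sets of letters. GCGAAGGG and GTGGATAA were each in 0 of the 122 autosomal peaks of these ranks (upper bound 3.05%), and in windows around 0.153% and 0.458% of X positions.

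The strongest members were mostly sites between protein-coding genes. The highest, rank 16, had a pooled signal of 200, with 70.4 in replicate 1 and 131 in replicate 2. Its core lay 10 bp from the summit (chrX position 11094219), and no protein-coding 5′ end was assigned to it, meaning that none lay within 2000 bp. Rank 19 had a pooled signal of 187 (73.1 in replicate 1 and 119 in replicate 2) and a summit 700 bp upstream of nspc-17, a gene of a nematode-specific peptide family. Rank 21 had a pooled signal of 176 (75.5 and 109) and no assigned gene. All 3 were within the first 42 ranks of each replicate's own list.

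Ranks 24 and 27, with pooled signals of 172 and 170, also had no assigned gene and held GCGAAGGG, as printed above. Rank 44 had a pooled signal of 145 (60.03 in replicate 1 and 91.0 in replicate 2) and lay in an intron of mom-1, whose product is needed for secretion of Wnt ligands. Rank 47 had a pooled signal of 144 (52.2 and 88.9) and lay 649 bp upstream of ins-39, a gene for an insulin-like peptide. In each of the 5 core holders above, from rank 16 to rank 47, replicate 2 had the higher signal value, and the lists of the replicates are on their own scales (their medians were 19.0 and 21.9).

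The next core holders had lower pooled signals. Rank 97 had a pooled signal of 120, with 53.6 in replicate 1 and 59.2 in replicate 2, and no assigned gene. Rank 101 had 118 (42.6 and 82.1) and lay in an intron of Y41G9A.17. Rank 102 had 118 (62.95 and 54.5) and lay 1770 bp upstream of F20B6.9. Only 1 core holder was in a coding exon: rank 148, inside pks-1, which encodes a polyketide synthase, with a pooled signal of 105 (50.3 and 72.6).

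Rank 289 stood apart between the replicates, with a pooled signal of 86.1. Its signal was 65.5 in replicate 2, at rank 133 there, and 16.4 in replicate 1, at rank 22611 of 30000. The 2 core holders outside the thresholded list were rank 377, 1051 bp downstream of the 5′ end of T24D8.6 (pooled signal 80.7, with 31.6 and 44.7), and rank 390, 39 bp upstream of R04E5.9 (79.9, with 30.2 and 50.1). All 12 core holders had a summit within 100 bp in both replicates, 9 lay between genes, 6 had no assigned gene, and 1 was within 500 bp of a 5′ end. The median pooled signal was 119 for the 12 with the core and 59.4 for the 550 without it, of which 22 were thresholded.

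**Figure D3:**
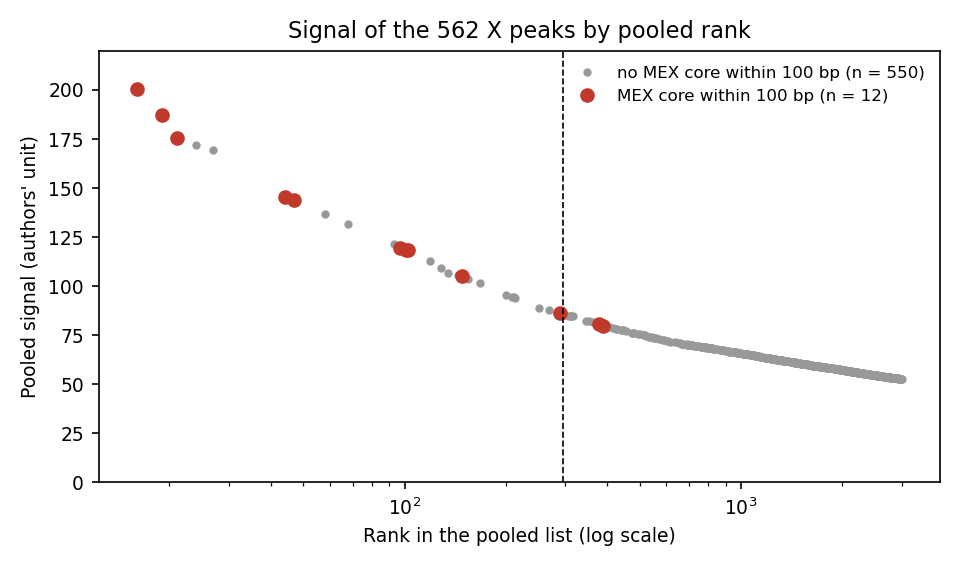
Pooled signal (vertical axis, authors' unit) of the 562 X peaks against their rank in the pooled list (horizontal axis, log scale); each point is 1 peak, red points hold the MEX core within 100 bp of the summit, and the dashed line marks the end of the thresholded ranks. The 12 red points run from a signal of 200 down to 79.9, and 10 of them stand left of the line.

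The core was not a feature of every strong X peak. Among the 25 highest members, those with none of the 3 sets of letters included rank 68, 237 bp upstream of T13C5.6, with a pooled signal of 132. Rank 46, near F19H6.5, with 145, had none within 100 bp, but a copy of the core lay just outside that window, its centre 124 bp from the summit. Rank 93 lay 572 bp upstream of ftt-2, a gene for a phosphoserine-binding adaptor protein, with a signal of 121. Another member lay 745 bp upstream of spat-3, which encodes a RING protein related to Polycomb-group ubiquitin ligases, with 118. Rank 135 was 200 bp upstream of klp-13, a kinesin-like motor gene, with 107, and rank 154 was 1452 bp upstream of pdk-1, a kinase gene of insulin signalling, with 104.

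The other members among the 25 highest had signals between 95.7 and 137. Ranks 58 (T27A8.7) and 128 (F02E8.4), with 137 and 110, held GTGGATAA. Rank 96 lay 981 bp upstream of the F-box gene fbxb-58, with 120. Ranks 119 (F55G7.5), 144 (F09E10.1) and 146 (252 bp upstream of serp-1.1) had signals of 113, 106 and 105, and ranks 168 and 200 had 102 and 95.7 with no gene assigned. Rank 144 also lay 228 bp from tts-1, a long non-coding RNA gene. Some members named in the paragraph above lay closer to a non-coding RNA gene. Rank 68 lay inside C14F11.14, and rank 93 lay 2 bp from F52D10.7. The member upstream of spat-3 lay 12 bp from T13H2.7. None of the summits of these 25 members lay closer to a protein-coding 5′ end than the 200 bp of klp-13.

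Taken over all ranks, pooled signal was between 200 and 52.7. Its median was 59.6, its quartiles were 56.0 and 66.1, and only 24 members exceeded 100. The median over the whole pooled list was 34.9. The weakest members, ranks 2985, 2997 and 3000, had signals of 52.8, 52.7 and 52.7, and the first X peaks beyond the limit, ranks 3003, 3004 and 3005, all had 52.7, so the rank limit separates no distinct class. The distance limit fell in a sparse zone: the members nearest to a short RNA gene were ranks 1241, 1447 and 2950, at 440, 608 and 766 bp, and the nearest peaks left out were ranks 149, 834 and 205, at 206, 205 and 201 bp. The median distance to a short RNA gene was 26935 bp, and 427 members were over 10000 bp away. GGTTCGA, letters of the internal B box of tRNA genes, was within 50 bp of 2 members (0.356%), beside 0.556% of X positions, and no member lay within 250 bp of any of the 209 annotated tRNA pseudogenes.

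The members made up 21.6% (20.1 to 23.3%) of the 2598 peaks on all chromosomes that passed the same rule, and X made up 17.7% of the nuclear length. Among all 29197 pooled peaks away from short RNA genes, with no limit on rank, the X share was 21.5%. The strong peaks were thus found on X in about the share that pooled peaks of any rank were. They were spread along the chromosome, with 191, 200 and 171 members in left, middle and right parts of equal length (34.0, 35.6 and 30.4%). Counts per megabase ran from 9 in the last and partial one, the lowest, to 46 in the fourth. Members had 561 separate places when those whose summits lay within 356 bp were joined, and 73 had another member within 2000 bp.

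Summits of the highest ranks were mostly between genes, and lower ranks held larger shares in coding exons. Over all members, 214 summits (38.1%, 34.2 to 42.2%) lay between protein-coding genes, 148 (26.3%) in introns, 183 (32.6%) in coding exons, 10 in 5′ UTRs and 7 in 3′ UTRs. Of X positions, 44.2% lie between genes, 30.8% in introns and 20.1% in coding exons. Between genes lay 27 of 32 thresholded members (84.4%, 68.2 to 93.1%), 59 of 115 in ranks 296 to 1000 (51.3%), 77 of 218 in ranks 1001 to 2000 (35.3%) and 51 of 197 in ranks 2001 to 3000 (25.9%). The shares in coding exons over the same ranks were 3.12, 22.6, 34.9 and 40.6%. Autosomal peaks of the same 4 rank ranges lay between genes in 43.4, 30.8, 27.7 and 25.4%.

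**Figure D4:**
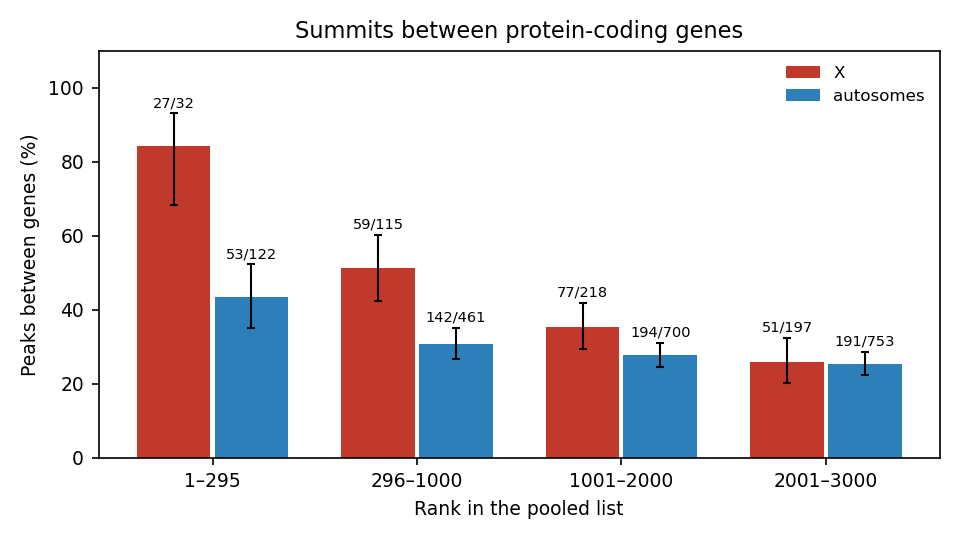
Share of peaks away from short RNA genes whose summit lay between protein-coding genes (vertical axis, %), by pooled rank (horizontal axis), for X in red and autosomes in blue; bars are shares, lines 95% Wilson intervals and labels counts. The X share was 84.4% in the thresholded ranks and 25.9% in ranks 2001 to 3000, and the autosomal share 43.4% and 25.4%.

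Summits near 5′ ends were a minority of the members. A protein-coding 5′ end was 500 bp or less away from 122 members (21.7%, 18.5 to 25.3%), beside 15.1% of X positions, and 593 autosomal peaks (29.1%, 27.2 to 31.1%), beside 19.6% of autosomal positions. In the thresholded ranks these shares were 25% on X (8 of 32, 13.3 to 42.1%) and 46.7% on autosomes (57 of 122, 38.1 to 55.5%). A gene was assigned to 323 members, 302 genes in all, with a median summit position 71 bp downstream of the 5′ end and quartiles of 506.5 bp upstream and 971 bp downstream. Within 250 bp of a gene of the annotated class ncRNA, which holds non-coding transcripts outside the short RNA classes used in the rule, lay 18.3% of the members (15.3 to 21.7%), beside 6.74% of X positions. The corresponding autosomal values were 8.20% of peaks and 3.18% of positions.

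Among genes near 5′ ends further down the thresholded ranks were trap-2, a translocon-associated protein gene (rank 209, summit 163 bp upstream), and vha-12, a gene for a vacuolar proton pump subunit (rank 211, 354 bp upstream). Rank 251 lay 406 bp upstream of eef-1A.2, a translation elongation factor gene. Rank 213 lay 301 bp downstream of the 5′ end of tsp-21, and rank 283 lay 148 bp upstream of C05G5.2. These were named after their values were seen.

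Of the genes that make or read the X signal and build the dosage compensation complex, 6 are on X, and 2 of them were assigned members. The summit at sdc-1, a zinc-finger subunit gene of the complex, was rank 381, 270 bp upstream of the 5′ end. Its pooled signal was 80.6, with 54.3 in replicate 1, at rank 117, and 28.8 in replicate 2, at rank 5998. A second member, rank 1421 with a pooled signal of 61.4, lay in a coding exon of sdc-1. The summit at sdc-2 was rank 1244, 443 bp upstream, with a pooled signal of 62.95, ranks of 665 and 8390 in replicates 1 and 2, and signals of 37.5 and 26.4. Both genes ranked far higher in replicate 1 than in replicate 2, and neither summit held the core within 100 bp. A member also lay in a coding exon of the X signal element fox-1, far from its 5′ end, at rank 551 with a pooled signal of 73.8. Among pooled peaks assigned by 5′ end, the best ranks at fox-1, at the X signal elements ceh-39 and sex-1, and at the switch gene xol-1 were 3887, 4287, 11222 and 22991, outside the members. For all protein-coding genes on X the share assigned was 11.1%, 302 of 2731.

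Other gene groups on X were assigned by 5′ end as follows, beside that 11.1%. Of the collagens, which build the cuticle, 8 of 31 genes on X (25.8%) had a member, and all 8 summits were in coding exons; the highest were at col-44 (84.9), col-185 (63.5), col-181 (61.2) and col-171 (57.9). The summit assigned to col-44 lay within the neighbouring collagen gene col-9, and rank 1252, assigned to F38B6.4, lay in an exon of col-172. Collagen genes resemble each other, and how reads shared between copies were treated is unknown here. Of muscle genes 4 of 15 had a member: the actin gene act-4 with 2 members (the higher at 70.80), the troponin I gene unc-27 (70.8), the pharyngeal myosin gene myo-2 (56.0) and unc-97 (53.6). Nuclear hormone receptors had 4 of 27, led by nhr-48 (68.8) and nhr-91 (64.8), and homeobox genes 4 of 26, led by ceh-41 (69.6) and ceh-54 (62.2). The summit assigned to ceh-41 lay in an intron of another homeobox gene, ceh-21. Of the 6 innexin genes on X, which encode gap junction subunits, inx-3 was assigned 2 members (69.9 and 57.02).

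Some groups were at or below that share. Neuropeptide and insulin-like genes had 3 of 36, ins-39 (144), flp-18 (59.3) and flp-3 (53.1), and ligand-gated and potassium channel genes 2 of 48, lgc-23 (58.7) and glr-7 (54.04). No member was assigned to any of the 28 sr-named G-protein coupled receptor genes, 5 vitellogenin genes, 3 C-type lectin genes or 2 ribosomal protein genes on X.

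Counting instead the genes whose span holds a member summit, which needs no nearby 5′ end and favours long genes, gave 306 of the 2731 genes on X (11.2%). Innexins then had 4 of 6, namely inx-1, inx-3, unc-7 and unc-9, with 2 summits in introns of inx-1 (61.05 and 60.4). Collagens had 10 of 31 and nuclear hormone receptors 7 of 27. Homeobox genes had 5 of 26, muscle genes 3 of 15, channel genes 4 of 48, and neuropeptide and insulin-like genes 1 of 36. The sr-named receptor genes srg-64 and srd-50, 2 of 28, each had a summit in a coding exon (55.4 and 53.6), and the vitellogenin, lectin and ribosomal protein genes had none. These lists are small, and their shares under either count are descriptions with no test.

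The replicates were compared by looking for a summit of each replicate's own list within 100 bp of the pooled summit. Both had one at 410 members (73.0%, 69.1 to 76.5%), replicate 1 alone at 62, replicate 2 alone at 86, and neither at 4. Autosomal peaks had both in 70.6%. By rank range on X the share with both was 84.4, 90.4, 71.6 and 62.4%, and on autosomes 92.6, 79.4, 71 and 61.4%. Both replicates entered the pooled list, so this describes the members and is no independent support for them.

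Few members stood high in the lists of both replicates. Replicate 1 signal over its 472 matched members had its lowest value at 14.6, its median at 27.3 and its highest at 84.0, and the median rank was 3614. Replicate 2 signal over its 496 had these at 16.2, 34.8 and 131, with a median rank of 2612.5. In their own lists, 208 members were in the first 3000 ranks of replicate 1 and 262 in those of replicate 2, but only 66 in both. Among as many top ranks of each list as the thresholded list is long, 12 members were in both. A strong pooled rank was thus mostly not matched by a rank as high in each replicate.

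Over the 410 members with both, the signals of the replicates had Spearman's rho of -0.22 and Pearson's r of 0.29. Over the 27 of these that were thresholded rho was 0.38, and over the 383 below it was -0.42. These are descriptions over peaks, which are not independent replicates, and the limit on pooled rank, to which both signals contribute, removes peaks low in both.

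**Figure D5:**
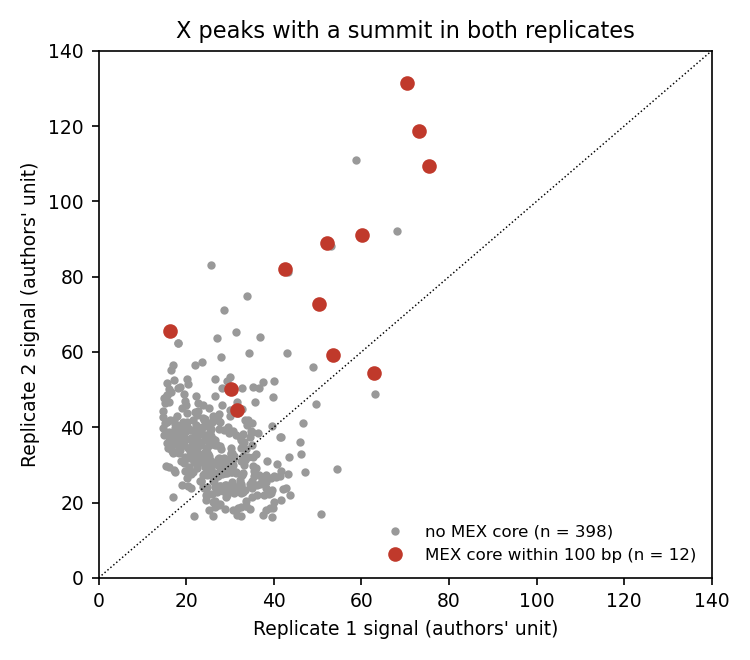
Signal in replicate 2 (vertical axis, authors' unit) against signal in replicate 1 (horizontal axis, authors' unit) for the 410 X peaks with a summit in both within 100 bp; each point is 1 peak, red points hold the MEX core, and the dotted line marks equal values. The points without the core crowd at low values of both, and 8 of the 12 red points exceed 50 in both replicates.

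Of the thresholded members, 5 lacked a summit within 100 bp in 1 replicate, and in each the nearest summit was only a little farther off. At ranks 46, 68, 93 and 251 it was in replicate 2, at 118, 128, 108 and 102 bp, where those peaks ranked 71, 205, 26 and 594. At rank 96 it was in replicate 1, at 123 bp, ranked 715. All 562 members were 356 bp wide in the pooled list.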

How the data were processed

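The data are 4 peak lists of 1 group with 2 biological replicates. Per the deposited file descriptions, each replicate list was made from that replicate's alignments with a control file shared by both, the pooled list from both alignments with that control, and the thresholded list from the other 3 by the irreproducible discovery rate, in ce11 coordinates. Caller, aligner and scaling were not given in the sources used here. The deposited signal of each peak, in the authors' own unit, ranked peaks within a list. The deposited −log10 q was kept beside each peak, is quoted for a few members, and chose no member. Read depth is unknown, and ranks can depend on it.

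Python 3.11.15 and numpy 2.4.6 were used for what follows. Genes came from Ensembl release 115 (WBcel235, the sequence of ce11) and letters from the RefSeq copy of that assembly; positions are 1-based. A peak was placed by its summit. A gene was assigned where its 5′ end was the nearest protein-coding one and within 2000 bp. Backgrounds were windows 500 bp away, all positions of X or the autosomes, and autosomal peaks of the same rule. Shares have 95% Wilson intervals, which cover counting error only, and no test was made. Searches and distances were tested on simulated sequence. Named genes were the 25 highest members, up to 10 core holders, up to 4 genes per list, and peaks at the limits; any further one was named after its values were seen. The members and lists were chosen with earlier results of these data known. Alternatives changed the rank, distance, window and letter settings, used each replicate's list alone, or placed peaks by midpoint.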

Additional observations from a re-analysis of the deposited data

How the results depend on the processing

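No paired analysis was possible because the results come from no test and there is 1 group. With the first 1500 or only the thresholded ranks in place of 3000, the members numbered 259 and 32; the share between genes was 49.8 and 84.4%, with the core 4.63 and 31.2%, with both replicates 81.9 and 84.4%, and with ACGCAG within 50 bp 7.72 and 21.9%, against 4.45% for all members. The lists of single replicates gave X shares of 19.3% (replicate 1) and 22.5% (replicate 2) and shares near a 5′ end of 17.8 and 20.3%. Each replicate alone gave 20% and 25% with the core on X among as many of its own highest ranks as the thresholded list is long, 7 of 35 and 10 of 40 peaks, beside 10 of 32 in the pooled list. They gave no share with both replicates. The share near a 5′ end was 12.1% at 250 bp and 36.3% at 1000 bp, the share with ACGCAG 2.49% at 25 bp and 7.83% at 100 bp, and the share with both replicates 48.0% at 50 bp and 89.5% at 250 bp. With 1 mismatch allowed in CGCGCAGGG the share with the motif was 4.63%. Wider windows and looser letters can only add matches; the cause of the differences by rank limit and by replicate was not tested. Distance limits of 100 and 500 bp and the midpoint left every share inside the interval of the value reported. Letters picked after the data were seen, GCGCAGGG or GCGAAGGG, gave 3.203% of members and 40.6% of the thresholded ones. Unknown depth limits what ranks between the replicates can show, and with 32 thresholded members the share with the core has an interval of 17.95 to 48.6%.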

Other observations

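The letters ACGCAG share CGCAG with the core but cannot match the same copy of it. They were within 50 bp of 25 members (4.45%, 3.03 to 6.48%), beside 1.74% of X positions. Of the autosomal peaks 5.65% (4.73 to 6.74%) held them, beside 1.93% of autosomal positions. They were in 7 of 32 members in the thresholded ranks (21.9%, 11.02 to 38.8%) and 10 of 115 in ranks 296 to 1000 (8.70%), and in 4 of 218 and 4 of 197 further down. Thresholded autosomal peaks held them in 19 of 122 (15.6%, 10.2 to 23.05%). In ranks 296 to 1000, 1001 to 2000 and 2001 to 3000 the autosomal shares were 5.86, 4.29 and 5.18%. The X shares in these ranges were 8.70, 1.83 and 2.03%.

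AGAGCG was within 50 bp of 29 members (5.16%), beside 1.78% of X positions, GAGAGAG of 23 (4.09%), beside 1.24%, and GAACCC of 19 (3.38%), beside 1.75%. The same shares of the 2036 autosomal peaks were 4.27% for AGAGCG, 5.21% for GAGAGAG and 2.46% for GAACCC. Beside them stood 1.60, 1.38 and 1.81% of autosomal positions. All of these letters apart from GAGAGAG had been noticed earlier in these data. The median GC content within 50 bp of the summit was 47.5% for the members, 46.5% for the autosomal peaks and 34.7% for windows 500 bp away from the members. GC content over all of X was 35.2%. The shares of positions and of windows 500 bp away were not matched to the peaks for GC content.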
